A study of Rattus norvegicus with 36 samples.

Results

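The data concern 7 immediate early genes, named by their Ensembl identifiers, were followed through 36 brain RNA libraries of Sprague Dawley rats: Fos (ENSRNOG00000008015), Junb (ENSRNOG00000042838), Egr1 (ENSRNOG00000019422), Egr2 (ENSRNOG00000000640), Npas4 (ENSRNOG00000020009), Nr4a1 (ENSRNOG00000007607) and Arc (ENSRNOG00000043465). They are 7 of the 32623 identifiers counted, and were chosen by name as classical immediate early genes, with earlier results of these data known. All 7 were detected in every library, with the lowest raw count at 57, and all 7 passed the filter on low counts in both regions. The rats had been trained in the touch-screen rat gambling task (rGT), in which options differ in the size and probability of reward and punishment. Each was called risk-seeking or risk-averse from its settled choices. The 4 groups were prefrontal cortex (PFC, medial per the extract protocol) of risk-seeking animals, PFC of risk-averse animals, nucleus accumbens (NAc, part of the ventral striatum) of risk-seeking animals and NAc of risk-averse animals, with 9 libraries each. The animals, 10 risk-seeking and 9 risk-averse, share strain and training, and no untrained animals were analysed here. The sources used here give neither the age and sex of the animals nor the time between the last session and tissue collection. Both regions came from 17 of the 19 animals. The risk-seeking animal titled R6 gave PFC alone, and the risk-seeking animal titled N9 gave NAc alone.

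Immediate early genes are transcribed within minutes of strong neuronal activity, from factors already present in the cell, and need no new protein synthesis. In neurons, calcium entry and kinase signalling act on CREB, which binds the cAMP response element (CRE), and on serum response factor, which binds the CArG box. Fos and Junb encode subunits of the AP-1 transcription factor. Egr1 and Egr2 encode zinc finger transcription factors, Npas4 a bHLH-PAS transcription factor that responds to calcium entry, and Nr4a1 an orphan nuclear receptor. Arc encodes a synaptic protein that takes part in the removal of AMPA receptors from the membrane. In dissected tissue, as here, fewer cells of a type and less RNA per cell cannot be told apart.

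The upstream sequences of Egr1, Egr2 and Nr4a1 are shown as examples with and without a CArG box, picked after the motif search, from a set of genes that all moved together across animals. They are the 250 bases before the RefSeq start site on build GRCr8, written 5′ to 3′ along the gene. Capitals mark CArG boxes (CC, 6 bases of A or T, GG) and the CRE core TGACG, which appears as CGTCA where it lies on the opposite strand. Egr1 lies at chr18:26736828-26737077 on the + strand, Egr2 at chr20:21054442-21054691 on the - strand and Nr4a1 at chr7:134259888-134260137 on the + strand.
Egr1: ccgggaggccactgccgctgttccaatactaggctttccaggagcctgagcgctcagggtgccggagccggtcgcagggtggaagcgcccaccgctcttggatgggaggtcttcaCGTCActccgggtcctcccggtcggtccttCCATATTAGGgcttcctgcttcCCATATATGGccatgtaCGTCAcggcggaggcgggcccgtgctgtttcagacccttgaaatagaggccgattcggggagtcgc
Egr2: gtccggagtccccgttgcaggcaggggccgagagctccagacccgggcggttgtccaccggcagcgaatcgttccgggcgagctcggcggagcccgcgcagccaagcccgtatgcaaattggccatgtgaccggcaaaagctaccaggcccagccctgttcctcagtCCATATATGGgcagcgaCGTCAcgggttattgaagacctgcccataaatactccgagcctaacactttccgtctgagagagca
Nr4a1: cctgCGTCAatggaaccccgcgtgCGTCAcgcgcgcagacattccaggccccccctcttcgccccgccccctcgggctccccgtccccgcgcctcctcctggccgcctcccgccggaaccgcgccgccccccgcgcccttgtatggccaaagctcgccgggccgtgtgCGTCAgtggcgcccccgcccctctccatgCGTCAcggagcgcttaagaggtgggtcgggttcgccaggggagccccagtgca
Egr1 and Egr2 hold the same CArG box letters, ccatatatgg, beginning 83 bases before the start, followed in both by a CRE core on the opposite strand beginning 66 bases before it. Egr1 has a further CArG box beginning 105 bases before the start and a further CRE core beginning 135 bases before it. Nr4a1 has no CArG box in this window and 4 CRE cores on the opposite strand, the nearest beginning 53 bases before the start, and 1 Egr-type site (GCGGGGGCG, opposite strand) beginning 73 bases before it. Promoters of 5 of the 7 genes were in the RefSeq table. Junb had 1 CRE core and 1 TATA box (TATAAA), and Npas4 had no match to any of the searched motifs, which were the full CRE (TGACGTCA), its core (which the full CRE also contains), the CArG box, the Egr site and the TATA box, on both strands of 300 bases around the start. None of the 5 held the full CRE. Over all 33469 promoters of this length, 21.2% held the CRE core, 1.64% the CArG box, 1.83% the full CRE, 2.73% the Egr site and 14.2% the TATA box, and 0.272% held both a CArG box and a CRE core. Fos and Arc had no entry. A match describes letters and not a bound site.

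The libraries held between 18436025 and 34761269 counts over genes. Shares of reads in several categories moved with preference, and the unassigned share, the part of uniquely aligned read pairs given to no annotated feature, also moved with region. It was 23.3% ± 0.666 in risk-seeking PFC and 25.01% ± 1.98 in risk-averse PFC (SD, n = 9 each). This difference passed an exact permutation test, two-sided, at p = 0.0136, or 0.0323 after adjustment over 8 tests of read categories. In NAc it was 25.7% ± 1.02 in risk-seeking and 27.6% ± 2.61 in risk-averse animals, which did not pass (exact permutation p = 0.0535, adjusted p = 0.0714). The ambiguous share, of pairs that overlap more than 1 gene, was higher in risk-seeking animals in both regions, at 0.719% ± 0.0331 against 0.655% ± 0.0417 in risk-averse PFC and 0.741% ± 0.0238 against 0.690% ± 0.0369 in risk-averse NAc (SD, n = 9 each, exact permutation tests, adjusted p = 0.0142 in both). The not-unique share of alignments was also higher in risk-seeking PFC (13.5% ± 0.185 against 12.9% ± 0.535 in risk-averse PFC, exact permutation adjusted p = 0.0323) and did not pass in NAc (adjusted p = 0.0708, exact permutation test). In all 17 animals with both regions the unassigned share was lower in PFC than in NAc. Within a region and centred on preference, Pearson's r of the 7 genes' log2 CPM (gene counts scaled to library size) with this share lay between -0.10 and 0.08 in PFC and between -0.23 and 0.14 in NAc (n = 18 libraries each). Library size gave r between -0.13 and 0.16 over both regions. The lowest of these 28 unadjusted permutation p-values was 0.389.

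The first comparison was between regions. Of the 7 genes, 6 were higher in PFC than in NAc, 1.62-fold for Egr1 to 2.75-fold for Egr2, and Junb did not pass the test. The test was edgeR's quasi-likelihood test with preference as a covariate, adjusted by Benjamini-Hochberg over 15470 genes, of which 5903 (38.2%) were higher in PFC. It treated the libraries of an animal as separate and included R6 and N9, which lack a partner library. Values are CPM scaled by TMM, given as lowest, median and highest of 18 libraries. Levels of different genes cannot be ranked, because CPM does not account for transcript length.

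Of the AP-1 subunits, Fos had 9.07, 21.8 and 88.4 CPM in PFC, against 4.34, 9.52 and 20.7 CPM in NAc. The log2 fold change was 1.41 ± 0.25 (SE), with an edgeR adjusted p = 6.81e-06. The ranges overlapped between animals, yet Fos was higher in PFC than in NAc in each of the 17 animals with both. Junb had 42.7, 72.3 and 202 CPM in PFC, against 45.9, 67.5 and 105 CPM in NAc, and was higher in PFC in 10 of 17 animals (log2 fold change 0.30 ± 0.17 (SE), edgeR adjusted p = 0.114). 

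The zinc finger factors both passed. Egr1 had 128, 186 and 332 CPM in PFC, against 77.4, 126 and 191 CPM in NAc (0.70 ± 0.12 (SE) on the log2 scale, edgeR adjusted p = 3.80e-06). Egr2 had 7.26, 15.0 and 56.4 CPM in PFC, against 2.99, 6.72 and 11.6 CPM in NAc (1.46 ± 0.25 (SE), edgeR adjusted p = 2.19e-06). Both were higher in PFC in 17 of 17 animals. The same count held for Npas4, at 3.64, 11.7 and 59.1 CPM in PFC against 2.36, 5.87 and 14.3 CPM in NAc (1.32 ± 0.32 (SE), edgeR adjusted p = 0.000414), and for the nuclear receptor Nr4a1, at 41.6, 81.2 and 205 CPM in PFC against 21.5, 43.8 and 80.9 CPM in NAc (0.97 ± 0.19 (SE), edgeR adjusted p = 2.83e-05). Arc, the synaptic effector, had 28.0, 104 and 391 CPM in PFC, against 39.1, 66.7 and 110 CPM in NAc (0.91 ± 0.24 (SE), edgeR adjusted p = 0.00116). It was higher in PFC in 15 of 17 animals, and the lowest Arc library of all 36 was the PFC library of the risk-averse animal BR9.

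**Figure D1:**
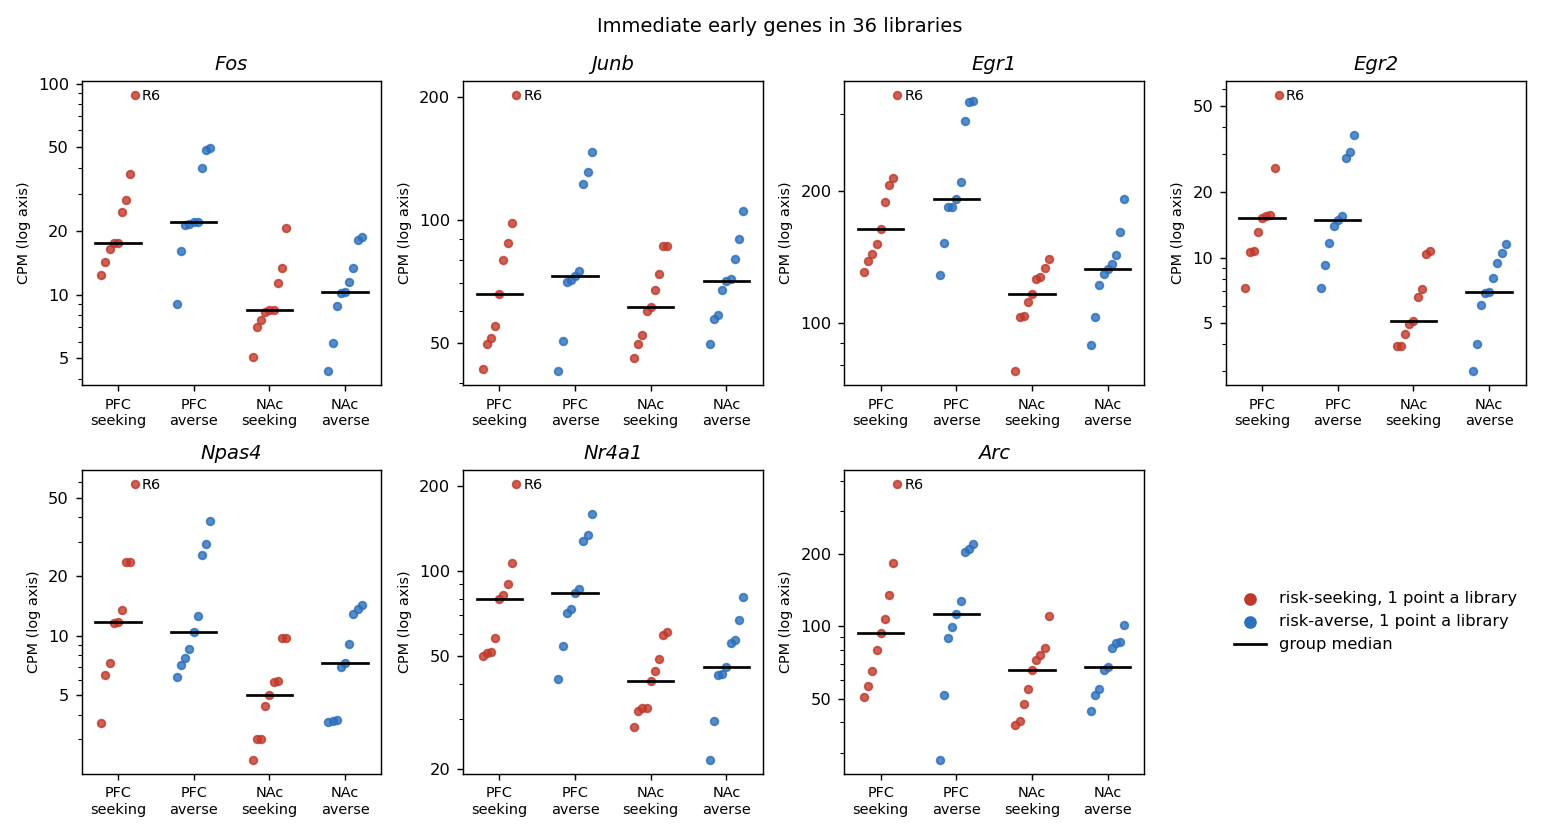
CPM of the 7 genes in each library, on log axes, by region and preference, 1 point a library, with a black line at the median of the 9 libraries of a group. Group medians are higher in PFC than in NAc at the same preference, with overlapping points and the smallest gap for Junb, and R6 is the highest PFC library of every gene.

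With the animal as a block, the same 6 genes passed, and the fold changes were smaller with narrower errors: 1.22 ± 0.06 (SE) for Fos, 1.28 ± 0.08 for Egr2, 1.01 ± 0.10 for Npas4, 0.86 ± 0.06 for Nr4a1, 0.63 ± 0.06 for Egr1 and 0.60 ± 0.13 for Arc on the log2 scale (edgeR, highest adjusted p = 0.000391). Junb was at 0.14 ± 0.07 (adjusted p = 0.0771). In this fit 6238 of 15470 genes (40.3%) were higher in PFC. The animals R6 and N9, which lack a partner library, carry no weight in it, and without them Fos was at 1.22 ± 0.06. With the unassigned share as a further covariate, 3 genes passed: Fos (0.66 ± 0.14, adjusted p = 0.000607), Egr2 (0.62 ± 0.18, adjusted p = 0.00698) and Nr4a1 (0.55 ± 0.16, adjusted p = 0.00799). Npas4 (0.58 ± 0.30, adjusted p = 0.117), Egr1 (0.18 ± 0.15, adjusted p = 0.334) and Arc (0.03 ± 0.37, adjusted p = 0.954) did not pass, and Junb turned to -0.40 ± 0.17 (adjusted p = 0.0552). The share differed between regions in the same direction in all 17 animals, at 24.2% ± 1.68 in PFC and 26.6% ± 2.15 in NAc (SD, n = 18 each), so region and share cannot be fully told apart.

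The study's main question was how risk-seeking animals differ from risk-averse ones. None of the 7 genes differed by preference at an adjusted p under 0.05 in PFC, where 3521 of 15128 genes (23.3%) passed edgeR's quasi-likelihood test. Preference differences in PFC lay between -0.25 and 0.12 on the log2 scale, and the lowest adjusted p was 0.409, for Egr1. That count over all genes was not stable: a covariate for the unassigned share left 334, and one for the ambiguous share left 0 (902 at an unadjusted p under 0.05). Leaving out the 4 animals highest in unassigned share left 1, and leaving out the risk-averse animal B3 left 2264. Those 4 (B2, B3, R7 and BR9) were all risk-averse, so that fit had fewer risk-averse than risk-seeking libraries. The 7 genes stayed uncalled in each of these fits. DESeq2 also called none of the 7. The errors were wide, so that sizeable differences in either direction lie within them.

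Fos had 12.4, 17.6 and 88.4 CPM (lowest, median and highest of 9 libraries) in risk-seeking PFC, against 9.07, 22.03 and 49.7 CPM in risk-averse PFC. Its log2 fold change was 0.02 ± 0.41 (SE), with a 95% interval from -0.84 to 0.89. Egr1 had 130, 164 and 332 CPM in risk-seeking PFC, against 128, 192 and 321 CPM in risk-averse PFC, a log2 fold change of -0.25 ± 0.21 (SE, interval -0.70 to 0.19). Npas4 had 3.64, 11.8 and 59.1 CPM in risk-seeking PFC, against 6.18, 10.5 and 38.0 CPM in risk-averse PFC, a log2 fold change of 0.12 ± 0.52 (SE, interval -0.97 to 1.22). With the ambiguous share as a covariate the PFC fold changes of all 7 were positive, from 0.14 for Egr1 to 1.30 for Npas4, and none passed (edgeR, lowest adjusted p = 0.761). Without that covariate, Arc was at 0.02 ± 0.44, Egr2 at 0.00 ± 0.41, Junb at -0.11 ± 0.31 and Nr4a1 at -0.11 ± 0.31 (log2 fold change ± SE). The groups overlapped for all 7 genes.

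In risk-seeking PFC the animal R6 had the highest value of all 7 genes. Its Fos was 88.4 CPM where the other 8 risk-seeking libraries lay between 12.4 and 37.2 CPM, and its Arc was 391 CPM where they lay between 50.9 and 184 CPM. Without R6, Fos averaged 21.1 ± 8.37 CPM in risk-seeking PFC (SD, n = 8), against 27.8 ± 14.5 CPM in risk-averse PFC (SD, n = 9). Without R6 the log2 fold changes of all 7 genes were negative, from -0.41 for Fos to -0.37 for Npas4, and none passed (edgeR, lowest adjusted p = 0.137, for Egr1). The highest risk-averse PFC libraries were those of R7, N6 and B2. Without R7 the fold change of Fos was 0.17, that of Egr2 0.18, and those of Junb and Nr4a1 0.03 and 0.02. Of single animals left out, only R7 turned Junb and Nr4a1 positive. Fos and Egr2, near 0 with all animals, turned negative without R6 and also without any of several other single animals.

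In NAc the preference differences of all 7 genes were negative, that is lower in risk-seeking animals, but none passed: no gene of 15418 (0%) did in edgeR, where 2748 had an unadjusted p under 0.05 and DESeq2 called 566, none of the 7 among them. Without the risk-averse animal R9, edgeR called 944 genes in NAc, again none of the 7. Npas4 had 2.36, 5.04 and 9.79 CPM in risk-seeking NAc, against 3.67, 7.33 and 14.3 CPM in risk-averse NAc. Its log2 fold change was -0.62 ± 0.33 (SE, 95% interval -1.33 to 0.09, edgeR adjusted p = 0.344). It was -0.02 with the ambiguous share as a covariate and -0.35 without the 4 animals highest in unassigned share, all of them risk-averse. Egr1 had 77.4, 116 and 140 CPM in risk-seeking NAc, against 89.0, 133 and 191 CPM in risk-averse NAc, a log2 fold change of -0.22 ± 0.12 (SE, interval -0.48 to 0.05, edgeR adjusted p = 0.368). The other 5 genes lay between -0.22 for Nr4a1 and -0.12 for Arc (lowest adjusted p = 0.624). With each NAc library left out in turn none passed and the 7 stayed negative, but their sizes moved: Fos lay between -0.37 (without B9) and -0.04 (without N6), Arc between -0.25 (without B9) and -0.04 (without R7), and Egr2 between -0.34 (without B9) and -0.10 (without R7). With the ambiguous share as a covariate, Fos was at 0.02. Since the 7 genes move together across animals, as described next, their common sign is not 7 separate observations.

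**Figure D2:**
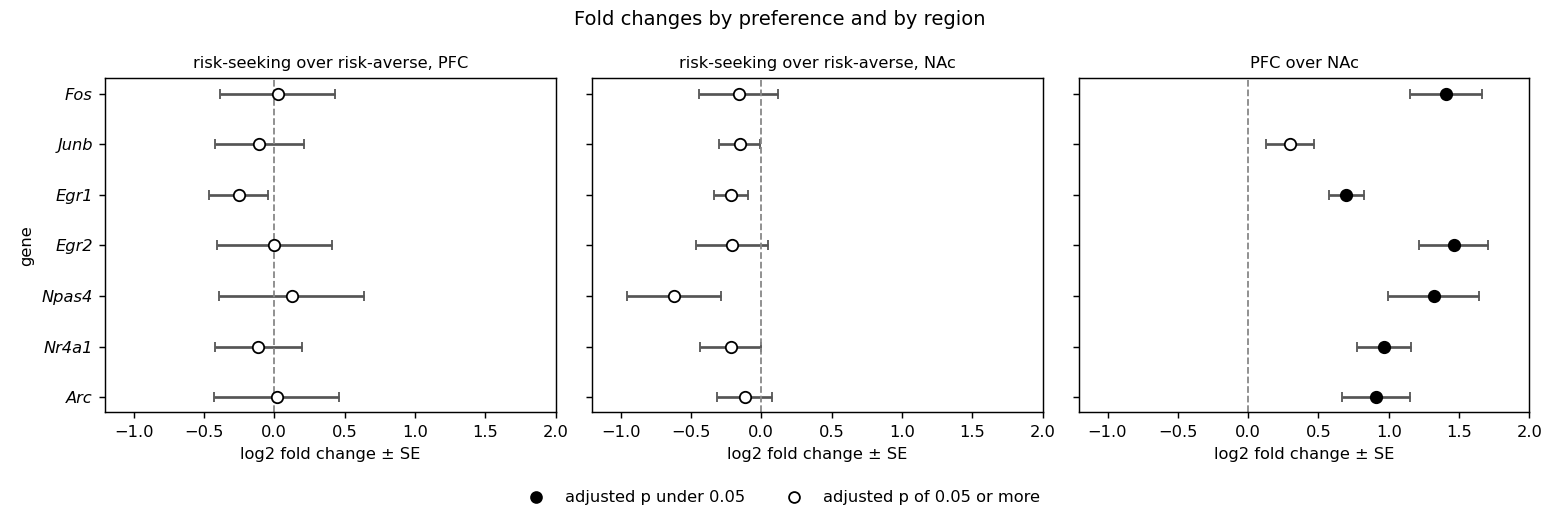
Log2 fold change of each gene with its SE (edgeR), for risk-seeking over risk-averse animals in PFC and in NAc, and for PFC over NAc. Filled points passed an adjusted p under 0.05: none by preference, and every gene but Junb by region.

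The preference difference did not differ between regions past the threshold for any of the 7 genes. The interaction was largest for Npas4, at 0.76 ± 0.63 (log2, SE; edgeR adjusted p = 0.981), and with the animal as a block it was 0.36 ± 0.20 and did not pass either. No gene of 15936 (0%) passed the interaction in edgeR or DESeq2. In edgeR 387 had an unadjusted p under 0.05 in the fit that treats the libraries of an animal as separate. With the animal as a block 1770 did, and again no gene passed. Over both regions, in limma with the correlation between libraries of an animal taken into account, the 7 genes lay between -0.20 for Egr1 and -0.04 for Arc on the log2 scale and none passed (lowest adjusted p = 0.311), where 3540 of 15936 genes (22.2%) did. A covariate for the unassigned share brought the count to 1494. Leaving out the 4 animals highest in that share, all of them risk-averse, left 0 (3060 at an unadjusted p under 0.05).

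The spread between animals of one group was wide for these genes. The biological coefficient of variation, edgeR's estimate of the spread beyond counting noise, lay between 0.306 for Egr1 and 0.732 for Npas4 in PFC, where the median of all genes was 0.111. In NAc it lay between 0.182 for Egr1 and 0.482 for Npas4, where the median was also 0.111. Set against the 500 genes nearest in mean level, each of the 7 had a larger value than at least 99.6% of them in PFC and 95.4% in NAc. These shares describe the genes' place and carry no test. Within groups, the SD of log2 CPM was larger in PFC than in NAc for all 7 genes: 0.96 against 0.45 for Arc, 0.65 against 0.33 for Junb, 1.09 against 0.77 for Npas4, and 0.83 against 0.64 for Fos. Over all 14765 genes measured in both regions, the SD was larger in PFC for 53.6%. Without R6 the PFC values were 0.84 for Arc, 0.53 for Junb, 0.95 for Npas4 and 0.68 for Fos, and all 7 genes stayed above their NAc values. The difference in spread between regions was not tested.

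Next came the question of whether an animal's level was shared by its 2 regions. All 7 genes covaried between PFC and NAc over the 17 animals: animals high in one region were high in the other. After centring log2 CPM on the preference group, Pearson's r was 0.91 for Fos, 0.88 for Npas4, 0.87 for Nr4a1, 0.86 for Egr2, 0.84 for Junb, 0.77 for Arc and 0.71 for Egr1. Over 14765 genes, with 100000 permutations of animals within preference and Benjamini-Hochberg adjustment, 3740 (25.3%) passed with r above 0, and the median r of all genes was 0.45. The adjusted p of the 7 ran from 0.00155 for Fos to 0.0217 for Egr1, and the unadjusted p of Fos, 1e-05, is the smallest these permutations can give. Spearman's rho lay between 0.72 for Egr1 and 0.87 for Junb and Nr4a1, and all 7 passed (highest permutation p = 0.00241, adjusted p = 0.0247). Over all 14765 genes, 2845 passed with rho above 0.

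Single animals show the pattern. Fos in the risk-averse animal R7 was 49.7 CPM in PFC and 18.1 CPM in NAc, and in the risk-averse animal BR9 it was 9.07 CPM in PFC and 4.34 CPM in NAc. Among risk-seeking animals, B9 had 37.2 CPM in PFC and 20.7 CPM in NAc, and N3 had 12.4 CPM in PFC and 5.06 CPM in NAc. B2 departed from it: its Arc was 220 CPM in PFC, the highest of the risk-averse animals, and 65.7 CPM in NAc, below the risk-averse median of 67.7 CPM. Without the 2 animals farthest from the PFC median, r stayed between 0.76 for Junb and 0.86 for Npas4 (n = 15). With the unassigned share of each region removed as well, r lay between 0.76 for Egr1 and 0.92 for Fos, all 7 passed, and the genes that passed over the whole table fell to 1307. Libraries of an animal may share handling and the time of dissection, and their part in the covariation was not tested.

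**Figure D3:**
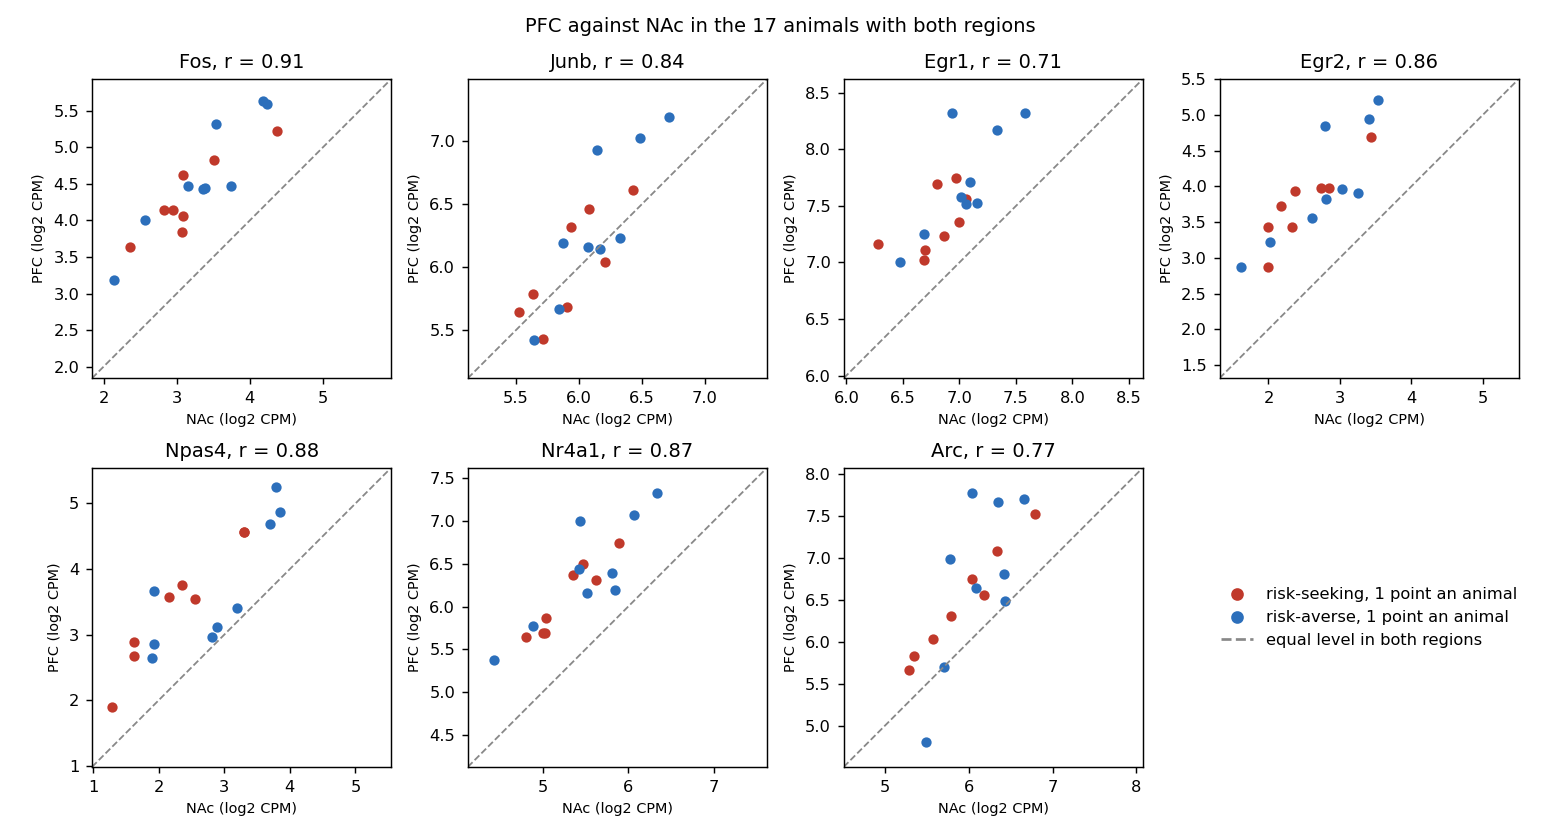
Log2 CPM in PFC against log2 CPM in NAc for each gene, 1 point an animal with both regions (n = 17), with a dashed line at equal levels. Points rise together, with r from 0.71 for Egr1 to 0.91 for Fos after centring on preference, and those of 5 genes lie above the line in every animal.

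Within a region, the 7 genes rose and fell together across animals. In PFC, Pearson's r between the 21 pairs of genes lay between 0.88, for Egr2 with Npas4, and 0.98, for Junb with Nr4a1, with a median of 0.96 (n = 18 libraries, centred on preference). Each gene in turn was set against all others in its region by permutation, with adjustment over all genes. All 21 pairs passed in PFC, in both directions (42 of 42 tests, highest permutation p = 5e-05). Over all genes 206 of 105889 tests of a gene against one of the 7 (0.195%) passed with r above 0, the 42 among them. Spearman's rho lay between 0.85 and 0.99, and 20 pairs passed. By rho, between 11 (for Egr2) and 25 (for Fos) of 15127 genes passed with each of the 7, all with rho above 0. Without the 2 libraries farthest from the median, r lay between 0.80 and 0.97. Without R6, it lay between 0.82 and 0.97, with a median of 0.94.

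In NAc the pairs had r between 0.66, for Egr1 with Npas4, and 0.95, for Egr2 with Nr4a1, with a median of 0.84, and Spearman's rho between 0.73 and 0.94. By permutation 7 of the 21 pairs passed, in 8 of 42 tests. Over all genes 14 of 107919 tests (0.013%) passed, the 8 among them. The smallest p that 100000 permutations can give passes adjustment over this table only where at least 4 genes share it, and all 42 tests between the 7 genes had an unadjusted p under 0.05 (highest permutation p = 0.0042). In limma, with the gene and preference as covariates, 18 of the 21 NAc pairs and all 21 PFC pairs passed in at least 1 direction. These were 33 of 42 NAc tests and 42 of 42 PFC tests. Over all genes, with those of the 7 included, 55 of 107919 NAc tests (0.051%) and 241 of 105889 PFC tests (0.228%) passed with a slope above 0. The NAc pairs that did not pass in limma were Npas4 with Egr1, Npas4 with Egr2, and Arc with Egr1. Without the 2 NAc libraries farthest from the median, r lay between 0.61 and 0.93. The difference in r between the regions was not tested.

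**Figure D4:**
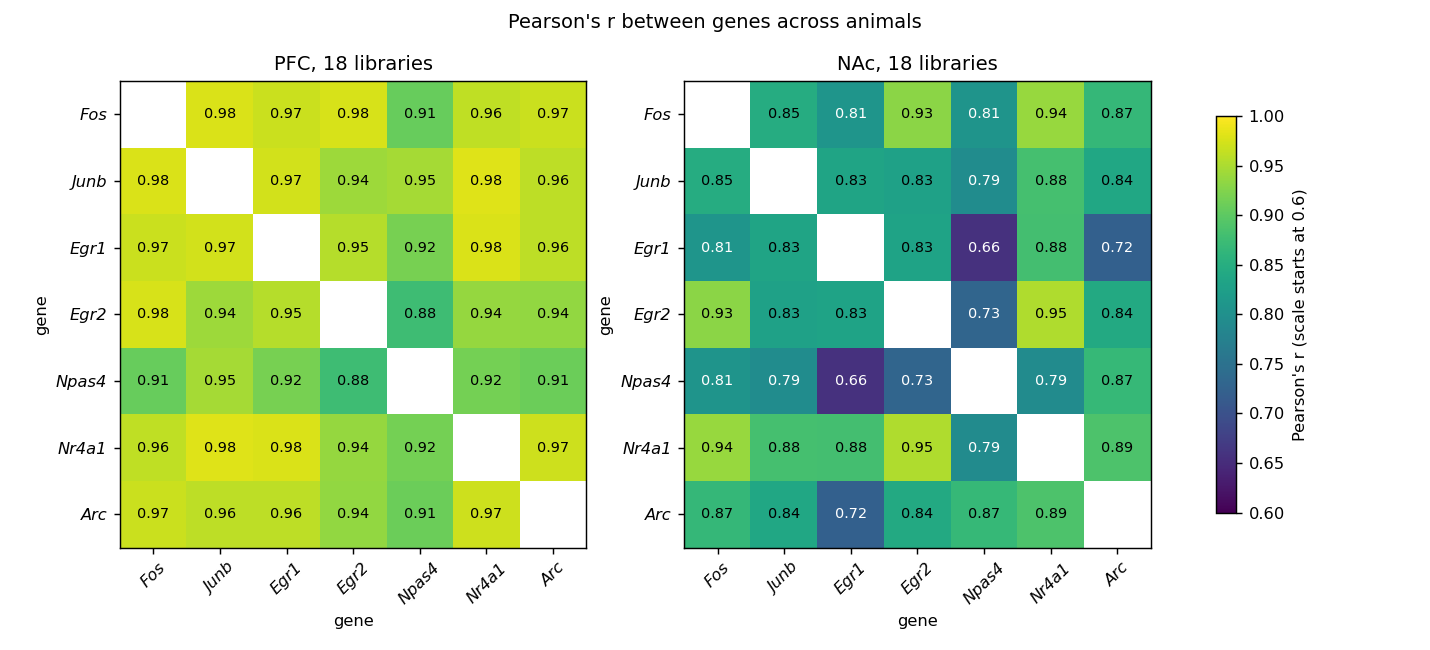
Pearson's r between log2 CPM of each pair of genes over 18 libraries of a region, centred on preference, with the colour scale starting at 0.6. PFC pairs lie between 0.88 and 0.98, NAc pairs between 0.66 and 0.95, and the lowest NAc values belong to pairs with Npas4 or Egr1.

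The pattern was present in both preference groups. The median r of the 21 pairs was 0.96 in risk-seeking PFC and 0.97 in risk-averse PFC, and 0.79 in risk-seeking NAc and 0.91 in risk-averse NAc (9 libraries each, no test). One component held 95.6% of the variance of the 7 scaled genes in PFC and 86.0% in NAc, and all 7 entered it with the same sign. The mean of the 7 genes, each in units of its within-group SD, ranked the animals. R6 stood at 2.20 above its group in PFC. R7 stood at 1.30 in PFC and 1.502 in NAc, N6 at 1.07 and 1.05, and B9 at 0.78 and 1.37. B2 stood at 1.11 in PFC but at 0.11 in NAc. At the other end, BR9 stood at -1.57 in PFC and -1.79 in NAc, N3 at -1.03 and -0.96, BR2 at -0.98 and -1.18, and B5 at -1.03 and -0.86. Because the scores were centred on preference, each preference group has animals above and below 0, and the scores do not compare the preferences.

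**Figure D5:**
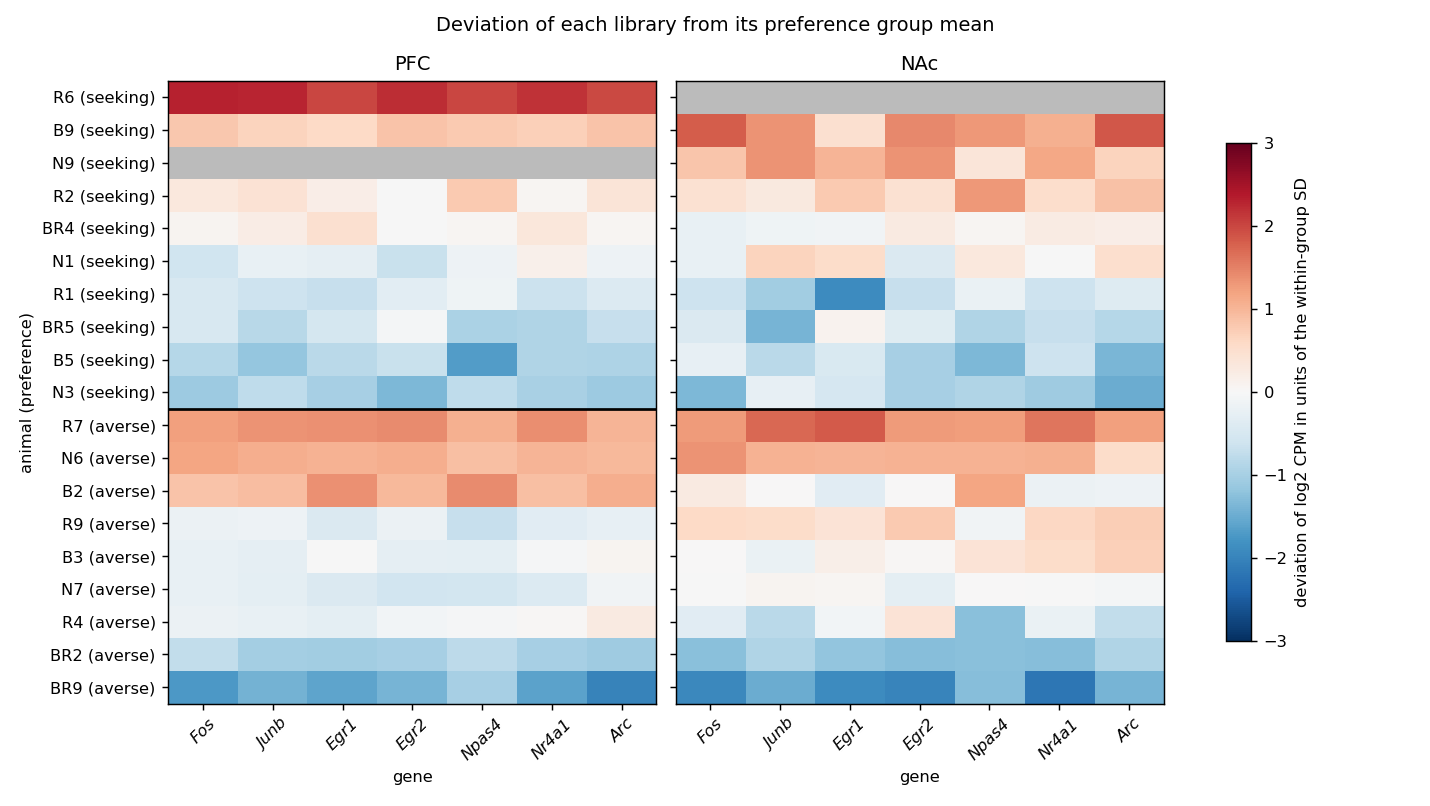
Deviation of log2 CPM from the mean of the preference group, in units of the within-group SD of the gene, for the 7 genes in PFC and in NAc, 1 row an animal, risk-seeking animals above the black line and grey where a region was not measured. Most rows keep 1 colour across genes and across regions, as in R7 (1.30 and 1.502 on average) and BR9 (-1.57 and -1.79).

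Genes outside the 7 with the most similar pattern were found by their correlation with the mean of the 7, among genes of at least 1 CPM on average, over the 18 libraries of a region. ENSRNOG00000003977 stood first in both regions, at r = 0.98 of 13765 genes in PFC and r = 0.87 of 13936 genes in NAc. Its mean level was 60.2 CPM in PFC against 24.4 CPM in NAc. Second were ENSRNOG00000054344 in PFC (r = 0.96) and ENSRNOG00000013090 in NAc (r = 0.83). In PFC the 7 genes' own correlation with their mean ran from 0.9459 for Npas4 to 0.9906 for Junb. The genes of places 1 to 4 outside the 7 lay within this range (r = 0.9764 to 0.9545). In NAc it ran from 0.871 for Npas4 to 0.9768 for Nr4a1, and ENSRNOG00000003977 lay within it at 0.8726. For each of the 7, the mean includes the gene itself. The most opposed were ENSRNOG00000030517 (r = -0.75) and ENSRNOG00000016193 (r = -0.74) in PFC, and ENSRNOG00000011201 (r = -0.78) and ENSRNOG00000054978 (r = -0.76) in NAc. These values rank genes on the same libraries and carry no test, and the files do not pair these identifiers with names.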

How the data were processed

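Total RNA of PFC and NAc (miRNeasy) went through the TruSeq RNA v2 kit and was read as 101-bp paired ends, per the labels' protocols. Per the submitters' processing notes, the tools were Trimmomatic, STAR 2.5.3a, HTSeq 0.9.0 and edgeR and the build Rnor_6.0 (rn6). The sources used here give neither annotation release nor strand setting, and without strand a gene's reads cannot be parted from those of an overlapping or antisense gene. The authors deposited raw counts, as whole numbers with no normalisation. Library sizes and tests leave out the 5 HTSeq summary categories.

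The members and lists were chosen with earlier results of these data known. All 7 genes are named, and genes most like them by rank of r. None of the 32623 identifiers matched the gene table (0 matches), so the fixed pathway lists and cell type markers could not be applied, and the dissected regions were not checked against marker genes.

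Animals were taken from the sample titles. Libraries of the 17 animals with both regions deviated together: own-animal r was 0.116 to 0.537, and 16 NAc libraries correlated best with their own animal's PFC. Libraries of a group are separate animals, and none of 144 within-group pairs was a repeat (chi-square per degree of freedom at least 6.97).

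The main test was the quasi-likelihood test of edgeR 4.0.16 (robust glmQLFit, R 4.3.3) after filterByExpr and TMM. An SE is the size of the log2 fold change divided by the root of F, and 95% intervals use the t distribution with 16 residual degrees of freedom. Both regions together used limma 3.58.1 (voom, duplicateCorrelation, consensus 0.395). Adjusted p under 0.05 was the threshold. Covariation used log2 CPM (prior count 2) and 100000 permutations of animals within preference. Alternatives were DESeq2 1.42.0, limma-voom, RLE factors, other filters, read-share covariates, title code letters, animal blocks and left-out libraries. Limma with a gene as covariate, the blocked fit on 17 animals and PFC values without R6 were added after the data were seen. The test of the title code letters themselves was not planned beforehand. The tests were checked on simulated data. Intervals cover the spread between these animals. Promoters are RefSeq's, on GRCr8, which is not the build of the counts.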

Additional observations from a re-analysis of the deposited data

Results flagged for a closer look

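Of 44 groups of 9 values examined (7 genes and 4 read measures in 4 groups), 8 had a library far from the other 8 of its group. The rule set the gap to the nearest library against the range of the group, on values without logs. Its chance rate of 1 in 20 holds for separate groups of normally distributed values. The 7 genes move together and their CPM need not be normally distributed, so the 8 cannot be set against a chance count. The log2 scale was not examined in this way. Of these 8, 7 come from the PFC library of 1 animal. In risk-seeking PFC, R6 stood apart for every immediate early gene: 88.4 CPM for Fos (others 12.4 to 37.2), 202 for Junb (others 43.1 to 98.2), 332 for Egr1 (others 130 to 214), 56.4 for Egr2 (others 7.26 to 25.8), 59.1 for Npas4 (others 3.64 to 23.6), 205 for Nr4a1 (others 50.04 to 107) and 391 for Arc (others 50.9 to 184). Its unassigned share, 22.5%, lay within the range of its group, its not-unique share, 13.8%, was the highest of the 36 libraries, and NAc of this animal was not analysed here. The eighth was the share of not-unique alignments of BR4 in risk-seeking NAc, 12.4% where the others lay between 12.7% and 13.1%.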

How the results depend on the processing

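The counts of genes called by preference (0 of 7 in PFC, in NAc, over both regions and for the interaction) held under each alternative run, as did the 7 covarying between regions and the 21 PFC pairs, to within 1 pair. The 6 genes higher in PFC also passed in DESeq2, with RLE factors, without a filter and with the animal as a replicate block. With the replicate block and the unassigned share as a covariate 3 passed, and Junb turned to -0.398. In that fit 3811 of all 15470 genes were higher in PFC. Of the 21 NAc pairs, 7 passed by permutation, 4 with Spearman's rho and 18 in limma with the gene as a covariate. By rho, 4 of 15417 genes passed in NAc against Nr4a1, and 0 against any other of the 7.

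Preference fold changes (log2) that were not called changed sign under some settings, and the cause was not tested. In PFC, limma-voom gave Fos -0.0897, Egr2 -0.0766, Npas4 -0.0366 and Arc -0.0299. The unassigned share as a covariate gave Fos -0.119 and Egr2 -0.067, and the ambiguous share gave Junb 0.379, Egr1 0.138 and Nr4a1 0.408. The ambiguous share also moved genes that kept their sign, to 1.3 for Npas4, 0.865 for Arc, 0.626 for Egr2 and 0.611 for Fos. Without the 4 animals of highest unassigned share, all risk-averse, Junb was at 0.0147 and Nr4a1 at 0.0259 in PFC, and Npas4 at 0.0712 over both regions. Egr2, near 0 in PFC, was at -0.00161 in DESeq2, -0.00571 with RLE factors, -1.68e-05 without a filter and -0.0146 with title code letters. In NAc with the ambiguous share, Fos was at 0.0208, Npas4 at -0.0238, Junb at -0.0194, and the other 4 between -0.15 and -0.0905. The interaction with the animal as a replicate block was -0.111 for Fos, -0.123 for Junb, -0.000504 for Egr2, -0.0617 for Nr4a1 and -0.0974 for Arc, and with the unassigned share as well -0.07 for Fos, -0.0872 for Junb, -0.0411 for Nr4a1 and -0.0613 for Arc.

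With each PFC library left out in turn, the preference fold change lay between -0.412 and 0.172 for Fos, -0.397 and 0.0251 for Junb, -0.406 and 0.184 for Egr2, -0.366 and 0.39 for Npas4, -0.384 and 0.0243 for Nr4a1, and -0.401 and 0.154 for Arc. Egr1 stayed negative, between -0.401 and -0.166. The lowest in each case was without R6. In NAc the ranges were -0.366 to -0.0362 for Fos, -0.216 to -0.0703 for Junb, -0.274 to -0.138 for Egr1, -0.338 to -0.101 for Egr2, -0.769 to -0.486 for Npas4, -0.316 to -0.0973 for Nr4a1 and -0.247 to -0.0394 for Arc. The lowest raw count of any of the 7 genes in a library was 57.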

Other observations

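The letters that open the animal codes in the titles (B, BR, N and R) are not explained by the labels. Given preference, they were not followed by any of the 7 immediate early genes at an adjusted p under 0.05 in edgeR. The unadjusted p lay between 0.144, for Arc, and 0.390, for Egr1, in PFC, and between 0.0766, for Junb, and 0.281, for Arc, in NAc. No gene passed this test in either region, while 1736 genes in PFC and 1328 in NAc had an unadjusted p under 0.05, and DESeq2 was not run for it.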
